A study of Mus musculus with 12 samples.

Results

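Livers of curcumin-treated mice on a high-fat, high-sugar diet (HFHS) were compared with the livers titled CNT, using 3 RNA-sequencing libraries of each out of 12 in the series. The comparison covered 12637 genes, those with a value of at least 3.32 (log2 of 10) in 3 or more of the 12 libraries, out of 22381 with values. All mice were female C57BL/6, a common inbred laboratory strain, and the submitters describe the diet, given for 14 weeks, as a model of fatty liver with inflammation (steatohepatitis). The HFHS_Curcumin mice received the diet and curcumin liposomes, given intravenously in weeks 12 and 13, and whole livers were collected 2 weeks after the earlier injection. The HFHS mice are those titled without a treatment, and the HFHS_Calcitriol mice received calcitriol liposomes on the same schedule. The labels give the CNT mice the same diet text as the other groups, so how CNT differed from HFHS is unknown here, and the group is called by its title. Ages at the start are not given in the sources used here, and a group with empty liposomes was not analysed here. Curcumin therefore cannot be told apart from the injection or from the liposomes. Whether the 3 libraries of a group are from different mice is not in the labels, and the p-values then reflect only how far these libraries scatter, which may be technical.

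Curcumin is the yellow polyphenol of turmeric. The hepatocyte balances storage of fatty acids in lipid droplets, their oxidation in mitochondria and peroxisomes, and their synthesis from sugar. The nuclear receptors PPAR-alpha and PPAR-gamma switch on genes of fatty acid oxidation and of lipid storage, while the SREBP factors switch on the synthesis of fatty acids and cholesterol.

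The comparison asks which differences from CNT were seen under curcumin, which of them were also seen in untreated HFHS livers, and which were seen under curcumin against both CNT and untreated HFHS. Untreated HFHS replicates 1 and 3 stood apart from the other 10 libraries, at -32.8 and -28.4 on the principal component that held 37.5% of the variance, whereas HFHS replicate 2 lay at 3.09 and the curcumin libraries between 2.03 and 9.04. The CNT libraries lay between 10.3 and 14.4. The curcumin libraries varied least among themselves, with a within-group SD of 0.126 on the log2 scale against 0.177 in CNT and 0.233 in HFHS. Since all groups shared 1 estimate of the spread, the HFHS libraries also bear on the comparison of curcumin with CNT. The values hold no counts, so the depth of the libraries is unknown, and a regularized log2, whose pattern the values have, understates the differences of weakly expressed genes. In whole tissue, fewer cells of a type and less RNA per cell cannot be told apart. The liver label was borne out by its markers: all 15 hepatocyte markers passed the filter, with a summed level (log2) of 21.05 to 21.24 in CNT and 20.96 to 21.25 under curcumin.

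Curcumin livers differed from CNT at 443 genes (3.51% of those tested), of which 202 were higher (1.6%) and 241 lower (1.91%). A call means an adjusted p under 0.05 from limma with Benjamini-Hochberg adjustment over all genes tested. Most differences were small: the median size among the called genes was 0.48 on the log2 scale, and 31 genes rose (0.245%) and 17 fell (0.135%) at least 2-fold. The groups of 3 libraries did not overlap at 442 of the 443 called genes, beside 25.6% of all genes tested. Leaving the HFHS libraries out of the fit, an alternative chosen after the data were seen, gave 814 called genes, leaving out HFHS replicates 1 and 3 gave 816, and leaving out HFHS replicate 2 gave 745. Leaving out CNT replicate 1, 2 or 3 gave 160, 100 and 949 calls, and leaving out curcumin replicate 1, 2 or 3 gave 136, 94 and 121.

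Among the genes that rose most were several of lipid droplets and fatty acid handling. Gpc1 encodes glypican 1, a heparan sulfate proteoglycan of the cell surface (ENSMUSG00000034220, GRCm38 chromosome 1, 92831645 to 92860779, plus strand). Its level stood at 6.51, 6.83 and 6.82 in CNT and at 8.60, 8.70 and 8.59 under curcumin, a rise of 1.91 ± 0.13 (log2 difference ± SE, n = 3 each; limma adjusted p = 3.61e-05). The groups did not overlap, and untreated HFHS stood between 8.15 and 8.49.

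Plin4 encodes a perilipin, a coat protein of lipid droplets (chromosome 17, 56100591 to 56109803, minus strand). It stood at 7.74, 6.83 and 6.81 in CNT and at 8.93, 8.67 and 9.43 under curcumin (log2 difference 1.88 ± 0.28, limma adjusted p = 0.00638). CNT replicate 1 lay nearly 1 log2 unit above the other CNT libraries and still below every curcumin library. Sema5b, a semaphorin, stood at 5.44, 5.57 and 5.43 in CNT and at 7.29, 7.32 and 7.16 under curcumin (1.78 ± 0.34, limma adjusted p = 0.0206). In untreated HFHS only replicate 2 of the 3 libraries, at 7.23, reached the curcumin range, the others standing at 5.47 and 5.82. Sema5b passed in 4 of the 9 fits that left out 1 library of CNT, HFHS or curcumin: its adjusted p was 0.0748 and 0.0749 without CNT replicates 1 and 2, and 0.0696, 0.0813 and 0.0591 without curcumin replicates 1, 2 and 3.

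The next largest rises were in Cidec (1.68), Pcp4l1 (1.67), a small relative of the calmodulin-binding protein PEP-19, Mt2 (1.62), a metallothionein, and Elovl3 (1.56), an elongase of very long fatty acids. Apoa4 (1.48), an apolipoprotein of triglyceride-rich particles, Fitm1 (1.47), an endoplasmic reticulum protein that partitions fat into droplets, and Aatk (1.45), a membrane-bound kinase, completed the 10 largest. Pcp4l1 showed the division of the HFHS libraries in another form: HFHS replicate 1 stood at 8.03, among the CNT libraries (8.01 to 8.27), and replicates 2 and 3 at 9.48 and 9.84, near the curcumin libraries (9.69 to 9.98).

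The largest fall was in Serpina1e, an alpha-1-antitrypsin gene whose product is a secreted protease inhibitor (chromosome 12, 103946931 to 103958975, minus strand). It stood at 11.43, 11.28 and 11.40 in CNT and at 7.52, 8.44 and 8.66 under curcumin (-3.16 ± 0.39, 8.96-fold lower, limma adjusted p = 0.00356). Untreated HFHS, at 8.11, 7.77 and 8.09, lay inside the curcumin range. The Serpina1 genes are near-identical copies, so reads may have been split between them, and of the 13 genes of this family and its neighbours that were tested, 1 fell and none rose, with a median of -0.22.

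Sult5a1, a sulfotransferase (chromosome 8, 123140192 to 123158315, minus strand), stood at 7.62, 8.03 and 7.65 in CNT and at 6.10, 6.35 and 5.98 under curcumin (-1.63 ± 0.18, limma adjusted p = 0.000847). Untreated HFHS stood lower still, at 5.24, 5.93 and 5.28, below all curcumin libraries, where the difference from curcumin had a limma adjusted p of 0.0772, or 0.0369 with the replicate number as a block. Cyp3a44, a cytochrome P450 with close relatives that may share its reads (chromosome 5, 145773983 to 145805874, minus strand), stood at 9.66, 9.95 and 10.27 in CNT and at 8.71, 8.18 and 8.15 under curcumin (-1.61 ± 0.32, limma adjusted p = 0.0272). Its call was lost without CNT replicates 1 and 2 (adjusted p = 0.0558 and 0.0934) and without curcumin replicates 2 and 3 (0.106 and 0.0875).

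Other large falls were in Adgrf1 (-1.56), an adhesion G protein-coupled receptor, Fasn (-1.50), the fatty acid synthase, and Tiam2 (-1.36), an exchange factor for the GTPase Rac. Acmsd (-1.35), an enzyme that diverts tryptophan breakdown away from NAD synthesis, Cyp2c69 (-1.23), Chrna4 (-1.22), a nicotinic receptor subunit, and Elovl6 (-1.21), the elongase that extends palmitate, completed the 10. For 67 of the genes named in this account the difference from CNT passed the threshold, and 23 of those passed in all 9 fits that left out 1 library, Gpc1, Plin4, Elovl3, Aatk, Serpina1e, Sult5a1, Adgrf1, Fasn, Acmsd and Elovl6 among them. The other 44 lost the call in at least 1 such fit, with adjusted p up to 0.181.

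**Figure D1:**
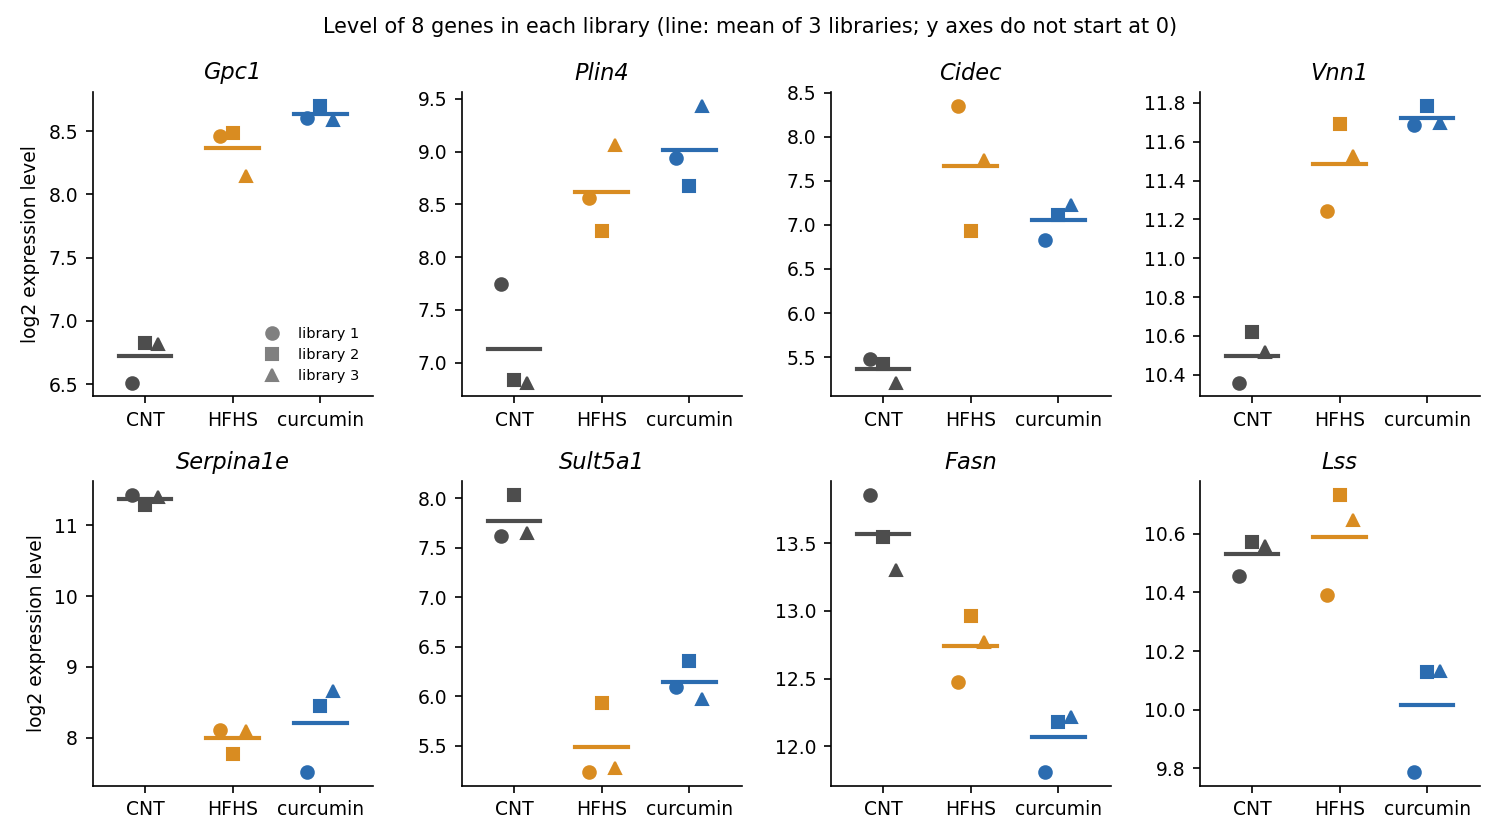
The level (log2, vertical axes not starting at 0) of 8 genes is plotted for each of the 3 libraries of CNT, untreated HFHS and curcumin, with a line at each mean. Gpc1, Plin4, Cidec and Vnn1 are higher and Serpina1e, Sult5a1, Fasn and Lss lower in every curcumin library than in every CNT library; the HFHS libraries lie near the curcumin ones for Serpina1e and near the CNT ones for Lss.

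Lipid droplet genes were higher under curcumin than in CNT. Of 20 tested, 5 rose and none fell, with a median log2 difference of 0.32 beside -0.0018 over all genes tested, and the groups did not overlap, in the upward direction, for 12 of them (12.9% of all genes). The risers were Plin4, Cidec, Fitm1, Mogat1 and Plin3. Cidec, whose product fuses and enlarges droplets, stood at 5.48, 5.42 and 5.21 in CNT, at 6.83, 7.11 and 7.22 under curcumin and at 8.35, 6.93 and 7.74 in untreated HFHS. Curcumin and HFHS overlapped, and their difference of -0.62 ± 0.29 did not pass (limma adjusted p = 0.21). Mogat1, a monoacylglycerol acyltransferase, rose by 0.89 and Plin3, another droplet coat protein, by 0.39. The count of 5 was 3 and 1 without CNT replicates 1 and 2, and 3, 1 and 2 without curcumin replicates 1, 2 and 3.

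Genes of fatty acid uptake were divided: 4 of 17 rose and 2 fell (median 0.22). Cd36, the fatty acid translocase, stood at 11.12, 10.81 and 10.67 in CNT and at 12.07, 12.07 and 12.01 under curcumin (1.18 ± 0.12, limma adjusted p = 0.000748). Its levels in untreated HFHS, 12.02 to 12.14, covered most of the curcumin range. Fabp2, an intracellular fatty acid carrier best known from the intestine, rose by 1.27, Slc27a1, a fatty acid transporter, by 0.63, and Pparg, the nuclear receptor of fat storage, by 0.53. Acsl3, an acyl-CoA synthetase of lipid droplets, fell by 0.42, and Fabp5, the carrier of epidermis and macrophages, by 1.19. The rises were 2 in each fit without a curcumin replicate, and the falls were 1, 0 and 2 without CNT replicates 1, 2 and 3, 1 without any curcumin replicate, and 1 without HFHS replicate 3.

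Fatty acid oxidation was the list with the most rises among those named here: 11 of 27 genes rose, none fell, 26 of 27 differences lay above 0, and the median was 0.48. For 23 of the 27 every curcumin library lay above every CNT library. Over all genes tested, 12.9% lay so and 1.6% were called higher. Vnn1, the pantetheinase that is a strong PPAR-alpha target, stood at 10.36, 10.62 and 10.52 in CNT and at 11.69, 11.78 and 11.70 under curcumin (1.22 ± 0.11, limma adjusted p = 0.000238). Cyp4a14, a fatty acid omega-hydroxylase, stood at 13.81, 13.67 and 13.51 in CNT and at 14.70, 15.03 and 14.95 under curcumin (1.23 ± 0.15, limma adjusted p = 0.00214). Curcumin and CNT did not overlap for either gene, and untreated HFHS lay above CNT, at 11.24 to 11.69 for Vnn1 and 14.35 to 14.55 for Cyp4a14.

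Others were Pdk4 (1.30), which restrains the use of pyruvate, Acot2 (1.25), a mitochondrial acyl-CoA thioesterase with close relatives, Cyp4a10 (1.19), Ucp2 (0.79), a mitochondrial carrier, Fgf21 (0.68), a secreted hormone of fasting, Acadm (0.59), the medium-chain dehydrogenase, Slc25a20 (0.49), the carnitine carrier, and Acaa1a (0.41), a peroxisomal thiolase. Untreated HFHS differed from CNT at 7 of these 27 genes, all higher, with a median of 0.15, beside 6.55% of all genes called higher and 5.36% called lower in that comparison (11.9% in all). No gene of the list passed the test of curcumin against HFHS (0.301% of all genes did), where the median was 0.27. With the replicate number as a block, 242 genes (1.92%) passed in curcumin against HFHS, and 1 of the 27, Slc25a20, was among them. The count of 11 was 6 and 3 without CNT replicates 1 and 2, and 4, 3 and 4 without curcumin replicates 1, 2 and 3.

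Some genes of fatty acid synthesis fell. Of 20 lipogenic genes, 4 fell and none rose, while 12 differences lay below 0 and 8 above it (median -0.23). Among all genes tested, 1.91% fell. The calcitriol libraries were lower too. The mean deviation of the list from CNT was -0.47, -0.72 and -0.86 in them, beside -0.49, -0.31 and -0.30 under curcumin. Fasn (chromosome 11, 120805846 to 120824547, minus strand) stood at 13.86, 13.54 and 13.31 in CNT, at 11.81, 12.18 and 12.21 under curcumin and at 12.48, 12.96 and 12.77 in untreated HFHS. The 3 groups did not overlap one another. The fall from CNT was 1.50 ± 0.17 on the log2 scale (2.83-fold lower, limma adjusted p = 0.00123). The further difference from HFHS, -0.67 ± 0.17, did not pass the threshold (limma adjusted p = 0.0724). Acaca, which makes malonyl-CoA, fell by 0.91, Elovl6 by 1.21 and Acly, which supplies acetyl-CoA from citrate, by 0.88 with an adjusted p of 0.0499. The Acly call was lost without CNT replicates 1 and 2 (adjusted p = 0.167 and 0.161), HFHS replicate 1 (0.0541) and any curcumin replicate (0.181, 0.128 and 0.106).

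Scd1, the stearoyl-CoA desaturase, differed by -1.63 ± 0.47 but did not pass (limma adjusted p = 0.0898). Its CNT libraries stood at 17.06, 16.92 and 15.78 and its curcumin libraries at 14.76, 15.07 and 15.05, so the groups did not overlap although CNT replicate 3 lay far below the other CNT libraries. Without CNT replicate 3 its adjusted p was 0.0319. The same omission brought the number of lower lipogenic genes from 4 to 7, and leaving out HFHS replicate 2 brought it to 6.

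Cholesterol synthesis was also lower: 5 of 24 genes fell, none rose, 23 of 24 differences lay below 0 and the median was -0.39. The calcitriol libraries were lower too. The mean deviation of the list from CNT was -0.60, -0.55 and -0.76 in them, beside -0.61, -0.27 and -0.36 under curcumin. Lss encodes lanosterol synthase, which closes the sterol rings. It stood at 10.46, 10.57 and 10.56 in CNT and at 9.79, 10.13 and 10.13 under curcumin (-0.51 ± 0.12, limma adjusted p = 0.0339). Untreated HFHS, at 10.39, 10.73 and 10.65, overlapped CNT and not curcumin, and the difference of curcumin from HFHS was -0.57 ± 0.12 (adjusted p = 0.051, or 0.0342 with the replicate number as a block). The Lss call against CNT was lost without CNT replicates 1 and 2 (adjusted p = 0.0763 and 0.121) and without curcumin replicates 1, 2 and 3 (0.125, 0.0800 and 0.0622).

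Insig1, the brake on SREBP processing, stood at 11.84, 11.96 and 11.90 in CNT and at 10.94, 11.28 and 11.17 under curcumin, with no overlap (-0.77 ± 0.14, limma adjusted p = 0.0152). Its call was lost without CNT replicate 2 (adjusted p = 0.0700) and without curcumin replicates 1 and 3 (0.0651 and 0.0511). Sc5d, a late enzyme of the pathway, fell by 0.53. Srebf2, the gene of the SREBP-2 factor itself, was the list member above 0, at 0.22. In untreated HFHS the same list had 1 lower gene, Ebp, a sterol isomerase, and a median of -0.04, and no list member passed the test of curcumin against HFHS (median -0.39). With the replicate number as a block, 8 of the 24 were lower in curcumin than in HFHS. The count of 5 was 2 and 0 without CNT replicates 1 and 2, 1, 2 and 1 without curcumin replicates 1, 2 and 3, 9 without HFHS replicate 2 and 9 without the HFHS libraries.

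Bile acid genes fell in part: 4 of 22, with none higher and a median of -0.08. Abcb11, the bile salt export pump, stood at 13.29, 13.19 and 13.11 in CNT and at 12.33, 12.38 and 12.31 under curcumin (-0.86 ± 0.10, limma adjusted p = 0.00162), with untreated HFHS between them at 12.60 to 12.87. Nr0b2, the repressor SHP, fell by 0.93, and Fgfr4 and Klb, receptor and co-receptor of the gut hormone FGF15, fell by 0.48 and 0.42. Cyp7a1, which catalyses the first step of the classic bile acid route, did not pass (0.27 ± 0.26, limma adjusted p = 0.639). The count of 4 was 1 and 1 without CNT replicates 1 and 2, and 1, 2 and 1 without curcumin replicates 1, 2 and 3.

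In the cytochrome P450 and glutathione transferase lists, the genes called against CNT were all lower. Still, 13 of the 32 P450 differences lay above 0, up to 0.82. Cyp4a14 and Cyp4a10, which rose, were counted with fatty acid oxidation. Of 32 cytochrome P450 genes, 4 fell and none rose (median -0.10): Cyp3a44, Cyp2c69, Cyp2g1 (-0.91) and Cyp2c70 (-0.79), the enzyme that makes muricholic acids in mice. All 4 also fell in untreated HFHS against CNT, where 12 of the 32 fell with a median of -0.49. Of 19 glutathione transferase genes, 4 fell and none rose (median -0.36): Gsta2 (-1.06), Gstm1 (-0.62), Gstm4 (-0.49) and Gstm7 (-0.49). The mean deviation of the glutathione transferase list from CNT was -0.27, -0.24 and -0.47 under curcumin and -0.53, -0.64 and -0.88 with calcitriol. Members of the P450 and glutathione transferase families are similar in sequence, and reads may be shared among them. Sult3a1, a sulfotransferase at -2.79 ± 0.55 in HFHS against CNT, was not called under curcumin (-0.94 ± 0.55, limma adjusted p = 0.402), with curcumin replicate 1 at 8.82 and the other 2 curcumin libraries at 9.88. The P450 count of 4 was 1 and 1 without CNT replicates 1 and 2, 2, 1 and 1 without curcumin replicates 1, 2 and 3, and 7 without the HFHS libraries. The glutathione transferase count was 1 and 0, then 1, 1 and 0 in the same 5 fits, and 7 without HFHS replicate 2 or without the HFHS libraries.

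Heat shock genes were slightly lower: 5 of 21 fell, none rose, 19 of 21 differences lay below 0 and the median was -0.17. The mean deviation of the list from CNT was -0.25, -0.12 and -0.22 under curcumin and -0.32, -0.33 and -0.27 with calcitriol. Hsph1 (-0.59), Bag3 (-0.49), Chordc1 (-0.45), Hspa8 (-0.41) and Dnajb1 (-0.39) encode chaperones or their partners. Bag3 stood at 9.23, 9.03 and 9.40 in CNT and within 8.71 to 8.75 under curcumin. The count of 5 was 0, 1 and 3 without CNT replicates 1, 2 and 3, and 0, 1 and 0 without curcumin replicates 1, 2 and 3.

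**Figure D2:**
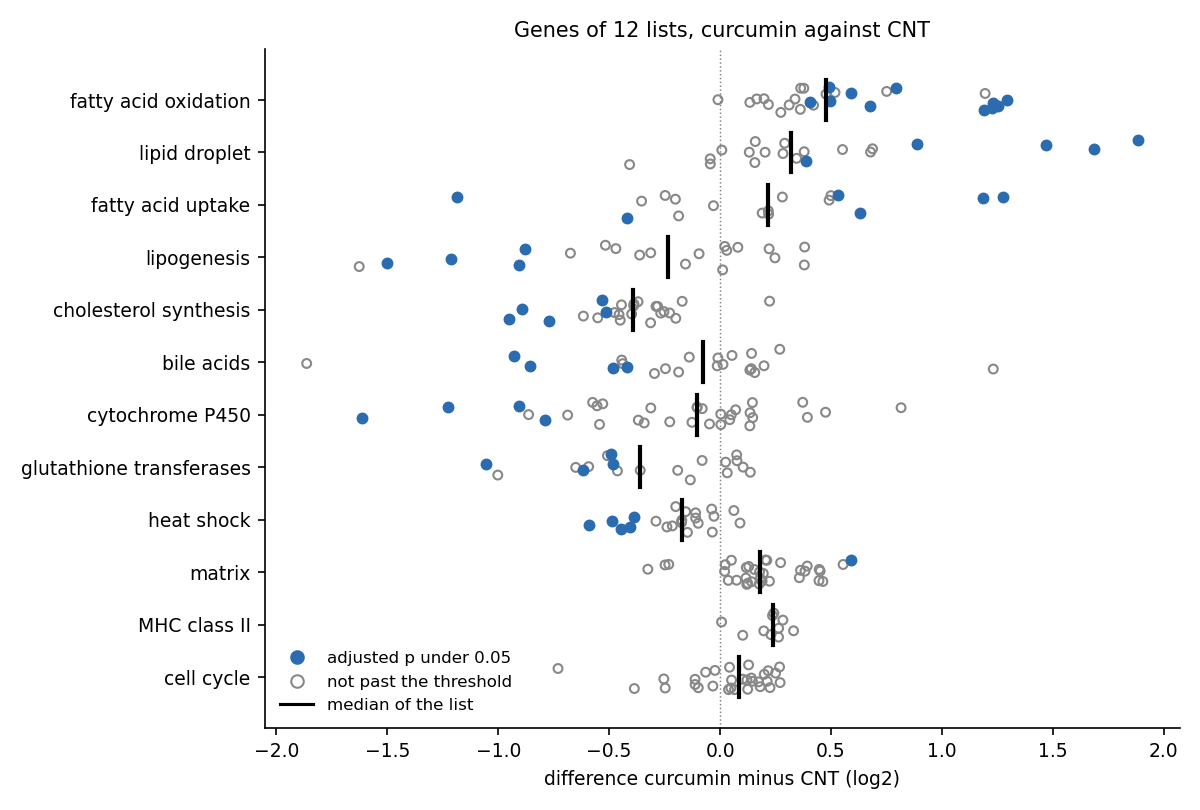
Each point is a gene of 1 of 12 lists, placed by its log2 difference between curcumin and CNT on the horizontal axis; filled points passed the test, and a bar marks the list's median. The medians of fatty acid oxidation (0.48) and lipid droplet genes (0.32) lie to the right of 0 and those of cholesterol synthesis (-0.39), glutathione transferases (-0.36) and lipogenesis (-0.23) to the left; 1 filled point stands among the matrix genes and none among the MHC class II and cell cycle genes.

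Of the 443 differences from CNT under curcumin, 213 were also called, in the same direction, in untreated HFHS against CNT (95 higher, 0.752% of all genes tested, and 118 lower, 0.934%, together 1.69%). They are 48.1% of the 443 and 14.2% of the 1505 genes called in HFHS against CNT. Both comparisons share the CNT libraries, so this overlap is a description. None of the 213 passed the test of curcumin against HFHS, and 4 did with the replicate number as a block. Leaving out HFHS replicates 1 and 3, so that HFHS rests on 1 library assumed to vary like the other groups, left 57. The count was 72, 30 and 470 without CNT replicates 1, 2 and 3, 80, 63 and 66 without curcumin replicates 1, 2 and 3, and 112, 361 and 112 without HFHS replicates 1, 2 and 3.

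Among the remaining genes, the largest rises in HFHS were in Cidec (2.30 in HFHS against 1.68 under curcumin), Gpc1 (1.65 against 1.91), Plin4 (1.49 against 1.88), Apoa4 (1.35 against 1.48), Ttc39a (1.30 against 1.01) and Tpm2 (1.21 against 1.42). Tpm2 encodes a tropomyosin, a partner of actin filaments. It stood at 6.56, 6.46 and 6.38 in CNT, at 7.34, 8.10 and 7.59 in HFHS and at 7.95, 8.05 and 7.68 under curcumin. The largest falls were in Serpina1e (-3.38 in HFHS against -3.16 under curcumin), Sult5a1 (-2.28 against -1.63), Cyp2c69 (-1.89 against -1.23), Tiam2 (-1.86 against -1.36), Cyp3a44 (-1.64 against -1.61) and Ces2a (-1.49 against -1.07), a carboxylesterase. By list, 6 of the 11 fatty acid oxidation rises, 3 of the 5 lipid droplet rises, 3 of the 4 lipogenic falls, 3 of the 4 bile acid falls and all 4 P450 falls were among the remaining genes. None of the 5 cholesterol synthesis falls and none of the 5 heat shock falls was.

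The other 230 of the 443 were not called in untreated HFHS against CNT, which by itself does not show that curcumin and HFHS differed. For 16 of them (0.127% of all genes tested) the difference between curcumin and HFHS also passed, in the same direction: 10 were higher (0.0791%) and 6 lower (0.0475%) under curcumin than in both groups. These comparisons share the curcumin libraries.

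The other liposome group showed some of these differences too. In calcitriol against CNT, where 4.04% of all genes were called (1.77% higher and 2.27% lower), 8 of the 16 were called in the same direction, 6 higher and 2 lower. Pex26 differed from CNT by 0.50 with calcitriol and 0.32 with curcumin, Hfe2 by 0.56 and 0.69, Adra1a by 0.48 and 0.50, and Gm15998 by -0.60 and -1.06. Cda, Sphk2, Gm10032 and P4ha1 were the others. The calcitriol and curcumin comparisons share the CNT libraries, and curcumin was not tested against calcitriol.

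Aatk had the largest such rise. It stood at 6.61, 6.53 and 6.15 in CNT, at 6.14, 7.05 and 6.20 in HFHS and at 7.59, 8.01 and 8.02 under curcumin (1.45 ± 0.23 from CNT and 1.41 ± 0.23 from HFHS, limma adjusted p = 0.00797 and 0.0384). No curcumin library overlapped either group. Gm10032, a predicted gene, rose by 1.04 from CNT, and its HFHS replicate 2, at 4.63, was again the highest HFHS library. Cda, cytidine deaminase, rose by 0.69 from CNT and by 0.58 from HFHS.

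Hfe2 encodes hemojuvelin, the co-receptor through which hepatocytes control hepcidin and so iron uptake. It stood at 9.21, 9.12 and 9.28 in CNT, at 9.49, 9.48 and 9.20 in HFHS and at 9.95, 9.86 and 9.88 under curcumin (0.69 ± 0.09 from CNT and 0.51 ± 0.09 from HFHS, limma adjusted p = 0.00214 and 0.0384). Of 21 iron and heme genes it was the only 1 called against CNT. Markers of red blood cells moved in the same direction: 8 of 9 lay above 0 with a median of 0.66, their summed level (log2) ran from 12.11 to 13.18 in CNT, 12.25 to 13.11 in HFHS and 13.45 to 13.58 under curcumin, and 1 of them, Alas2, the erythroid enzyme of heme synthesis, rose (0.66, adjusted p = 0.0171). With calcitriol the summed level of the red cell markers was also high, at 13.50 to 13.80. The part of red cell RNA in these differences was not tested.

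The other rises over both groups were smaller. Sphk2, a sphingosine kinase, rose by 0.57 from CNT, Coa6, an assembly factor of cytochrome c oxidase, by 0.53, Adra1a, the alpha-1A adrenergic receptor, by 0.50, Fpgs, which adds glutamates to folate, by 0.49, Fhad1 by 0.46 and Pex26, a peroxisomal import factor, by 0.32. The falls below both groups were in Gm15998 (-1.06 from CNT), Creb3l2 (-0.56), a transcription factor held in the endoplasmic reticulum, Mdn1 (-0.47), a ribosome assembly factor, P4ha1 (-0.46), a collagen prolyl hydroxylase, Trim56 (-0.34), a ubiquitin ligase, and Htt (-0.27), huntingtin. Htt was tight in every group, at 8.70 to 8.72 in CNT, 8.86 to 8.88 in HFHS and 8.39 to 8.53 under curcumin.

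This set of 16 depended on the libraries. It was 0 without CNT replicates 1 or 2 and 64 without CNT replicate 3, 1, 0 and 0 without curcumin replicates 1, 2 and 3, and 0, 254 and 0 without HFHS replicates 1, 2 and 3. It was also 0 without HFHS replicates 1 and 3 together, and 52 with the replicate number as a block. In curcumin against HFHS, limma called 38 genes after adjustment and 3123 (24.7%) at an unadjusted p under 0.05. Against CNT alone, Aatk, Gm10032, Cda, Hfe2, Adra1a and Gm15998 passed in all 9 fits that left out 1 library, while Pex26 passed in 2 and the other 9 in 3 to 5.

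**Figure D3:**
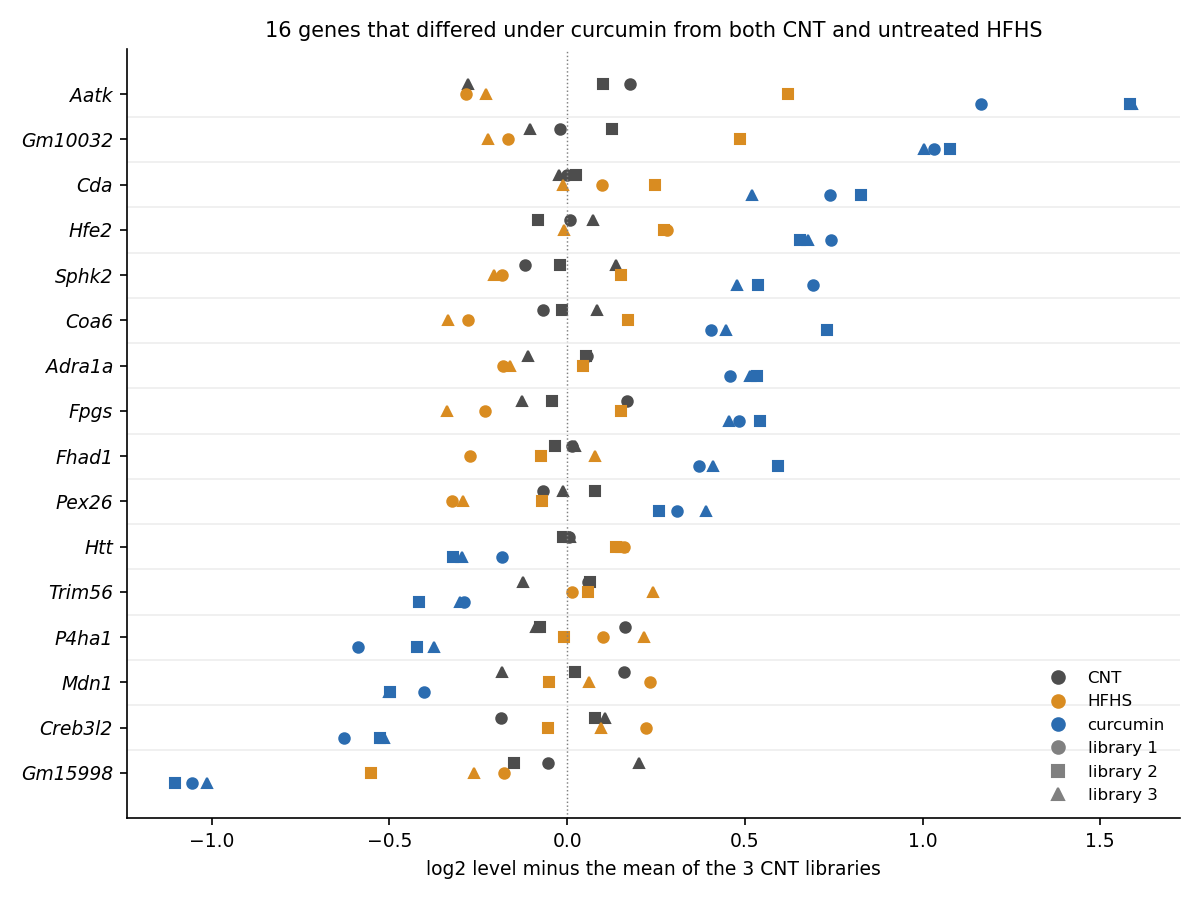
The horizontal axis gives the log2 level of each library minus the mean of the 3 CNT libraries for the 16 genes that differed under curcumin from both CNT and untreated HFHS, with colours for the groups and marker shapes for the replicates. The curcumin libraries (blue) lie to the right of both other groups for 10 genes, from Aatk to Pex26, and to their left for 6, from Htt to Gm15998.

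Of the 1505 genes called in untreated HFHS against CNT, 1292 were not called in curcumin against CNT. For 14 of these (0.111% of all genes tested) the difference between curcumin and HFHS passed in the opposite direction, 9 having been higher (0.0712%) and 5 lower (0.0396%) in HFHS. These comparisons share the HFHS libraries. Mcm5 and Mcm6, parts of the helicase that opens DNA for replication, stood at 6.99, 6.76 and 6.46 and at 8.02, 7.40 and 7.56 in HFHS. Under curcumin they stood at 6.02, 5.80 and 6.02 and at 6.83, 6.75 and 6.83, near the CNT ranges of 5.61 to 5.78 and 6.39 to 6.74. Their differences from HFHS were -0.79 and -0.86 (limma adjusted p = 0.0384 each).

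Hells, a chromatin remodeller of dividing cells, Maged2 and Hspa1b, an inducible Hsp70 gene with a near-identical twin, had differences from HFHS of -0.68, -0.82 and -0.71. Shank2, a scaffold protein, stood at 8.61, 8.13 and 8.43 in HFHS and at 7.59, 7.19 and 7.40 under curcumin, with no overlap (limma adjusted p = 0.0238). Against CNT these 4 genes differed by -0.25, -0.12, -0.29 and -0.36 under curcumin, and none passed. Lower in HFHS and higher under curcumin than in HFHS were Mir22hg (0.65), the host transcript of a microRNA, 1700018L02Rik (0.59), Vps37b (0.58), a subunit of an endosomal sorting complex, Fam234b (0.49) and Rab3ip (0.35), an exchange factor for Rab8. The count of 14 was 0, 0 and 78 without CNT replicates 1, 2 and 3, 2, 0 and 0 without curcumin replicates 1, 2 and 3, 0, 2283 and 0 without HFHS replicates 1, 2 and 3, 0 without HFHS replicates 1 and 3 together, and 116 with the replicate number as a block.

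Groups of genes that were higher in untreated HFHS mostly lay close to CNT under curcumin. Of 34 matrix genes, 13 rose in HFHS against CNT with a median of 0.97, beside 6.55% of all genes called higher in that comparison. Against CNT, 1 rose under curcumin, Postn (0.59), which encodes the matrix protein periostin, and the median was 0.18. Postn passed in no fit that left out a curcumin replicate or CNT replicate 2 or 3, and 4 matrix genes rose without HFHS replicate 2. The HFHS libraries were divided: the mean deviation of the list from CNT was 1.45 and 1.31 in HFHS replicates 1 and 3 and 0.17 in replicate 2, beside 0.26, 0.15 and 0.18 in the curcumin libraries. Col1a1, a collagen I chain, measured 7.87, 7.34 and 7.36 under curcumin, above CNT at 6.87 to 7.14 without passing (0.55 ± 0.62, limma adjusted p = 0.69). HFHS replicate 2, at 7.33, matched the curcumin level, while HFHS replicates 1 and 3 stood at 10.13 and 9.78.

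MHC class II genes, which present antigen to T cells, showed the same arrangement. Of 10, 8 rose in HFHS and none was called under curcumin, where all 10 differences lay above 0 with a median of 0.24. Among all genes tested, 6.55% were higher in HFHS and 3.51% were called under curcumin. Cell cycle genes had 15 of 30 higher in HFHS, none called against CNT under curcumin (median 0.08), and 3 called lower in curcumin than in HFHS: Mcm5, Mcm6 and Hells. No matrix or MHC class II gene passed the test of curcumin against HFHS. With the replicate number as a block, 1 of 34 matrix genes, Col15a1, 1 of 10 MHC class II genes, H2-DMa, and 8 of 30 cell cycle genes were lower in curcumin than in HFHS. Genes of the urea cycle and nitrogen handling had 8 of 18 lower in HFHS, beside 5.36% of all genes. None was called under curcumin, where 15 of 18 differences lay below 0 with a median of -0.28. The mean deviation of this list from CNT was -0.62, -0.18 and -1.04 in HFHS and -0.20, -0.30 and -0.43 under curcumin. HFHS replicate 2 was thus closer to CNT than every curcumin library.

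**Figure D4:**
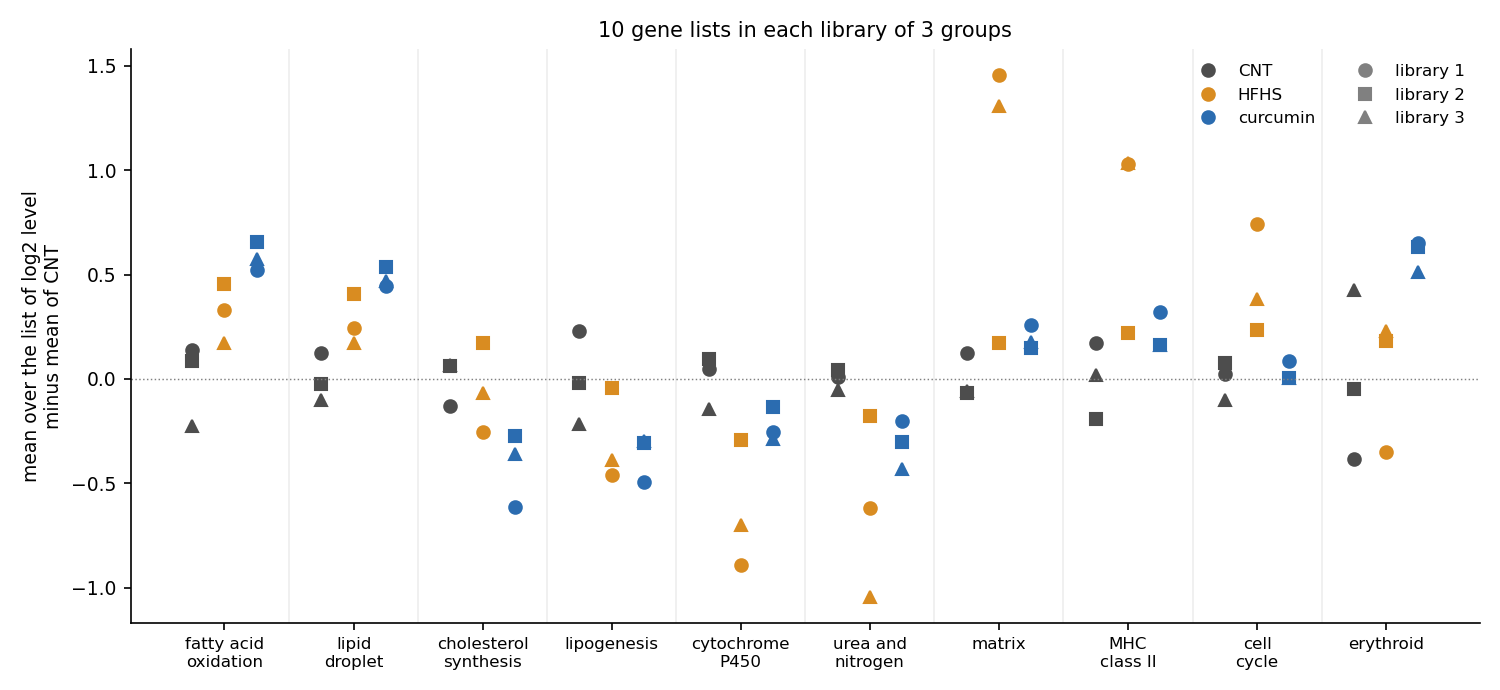
For 10 gene lists, each point gives 1 library's mean over the list of the log2 level minus the CNT mean, for CNT, untreated HFHS and curcumin, with marker shapes for the replicates. Fatty acid oxidation, lipid droplet and erythroid genes are higher and cholesterol synthesis and lipogenesis lower in all 3 curcumin libraries than in all 3 CNT libraries, while HFHS replicates 1 and 3 stand apart for matrix and MHC class II genes.

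Metallothioneins are small metal-binding proteins induced by zinc through short metal response elements upstream of their genes. Mt2 stood at 9.82, 9.85 and 10.53 in CNT, at 10.17, 9.57 and 9.64 in HFHS and at 12.14, 11.54 and 11.37 under curcumin (1.62 ± 0.37, limma adjusted p = 0.0389). The curcumin libraries did not overlap either group, but the call was lost in 8 of the 9 fits that left out 1 library, all but that without CNT replicate 3, with adjusted p from 0.0501 to 0.134. Against HFHS the difference was 1.89 ± 0.37 (adjusted p = 0.051). The rise was also seen with calcitriol liposomes, where Mt2 stood at 11.75, 12.27 and 13.31 (2.38 ± 0.37 from CNT, limma adjusted p = 0.0109). Its neighbour Mt1 stood at 11.18, 11.31 and 12.33 in CNT and at 12.68, 12.25 and 12.01 under curcumin, where the groups overlapped through CNT replicate 3 (0.70 ± 0.35, limma adjusted p = 0.32). Against HFHS, at 10.94, 10.66 and 10.65, Mt1 did not overlap curcumin and differed by 1.56 ± 0.35 (adjusted p = 0.0665). With calcitriol Mt1 differed from CNT by 1.19 ± 0.35 (limma adjusted p = 0.0802). Of 14 metallothionein and zinc genes, 2 rose, Mt2 and Slc39a5 (0.99), a zinc importer, and none fell.

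The 250 bases upstream of both start sites are shown for this neighbouring pair, of which Mt2 was called against CNT and Mt1 was not; the difference between the pair was not tested. The sequences are from RefSeq for GRCm38.p6, plus strand, at chr8:94172368-94172617 for Mt2 and chr8:94178839-94179088 for Mt1. Capitals mark matches to the metal response core, searched as TGCACNC and TGCGCNC on both strands, with no overlapping matches here.
Mt2: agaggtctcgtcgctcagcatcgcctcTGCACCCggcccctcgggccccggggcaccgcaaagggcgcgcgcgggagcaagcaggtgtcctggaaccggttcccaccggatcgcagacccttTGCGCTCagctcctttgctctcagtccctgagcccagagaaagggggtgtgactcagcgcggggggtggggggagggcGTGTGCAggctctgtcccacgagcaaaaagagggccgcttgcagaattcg
Mt1: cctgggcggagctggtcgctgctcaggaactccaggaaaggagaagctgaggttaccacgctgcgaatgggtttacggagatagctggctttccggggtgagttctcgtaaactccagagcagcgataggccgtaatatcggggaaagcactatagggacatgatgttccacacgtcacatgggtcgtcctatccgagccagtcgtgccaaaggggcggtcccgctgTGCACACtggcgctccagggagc
The Mt2 window held 3 matches, at positions -223, -128 and -50 from the start site, and the Mt1 window held 1, at -23. Of 32851 promoter windows of this length, 21.4% held at least 1 match and 1.26% held at least 3. A match describes letters in the window, not binding. The windows hang on the RefSeq start sites, whereas the genes start at 94172664 (Mt2) and 94179082 (Mt1) in GENCODE M21. Sequence outside these windows was not searched, so the counts do not give the number of metal response elements of either gene.

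Inflammation markers and targets often discussed for curcumin did not pass against CNT. Il1b, an inflammatory cytokine, differed by 0.44 ± 0.18, Ccl2, a chemokine for monocytes, by 0.24 ± 0.16, Cd68, a macrophage marker, by 0.26 ± 0.13 and Gpnmb, a glycoprotein of lipid-laden macrophages, by 0.36 ± 0.71, with limma adjusted p of 0.225, 0.465, 0.318 and 0.837. Every curcumin library lay above every CNT library for Il1b, Ccl2 and Gpnmb, as for 12.9% of all genes, while Cd68 overlapped. The SE of Gpnmb shares the spread of HFHS, whose SD was 1.88, beside 0.05 in CNT and 0.25 under curcumin. Nfkbia, the inhibitor that NF-kappaB itself induces, lay at 0.01 ± 0.12, and the antioxidant genes Hmox1 and Nqo1 at 0.33 ± 0.18 and -0.0036 ± 0.13 (limma adjusted p = 0.98, 0.359 and 0.993). Tnf, at 2.32 to 2.50 under curcumin and 2.37 to 2.47 in CNT, and Vdr, the vitamin D receptor, below 0 in all libraries, lay under the filter, and Cyp24a1, which breaks down vitamin D, was at 0 or not listed. None of 23 NF-kappaB targets and none of 22 targets of the antioxidant factor NRF2 was called (medians 0.09 and -0.05), beside 3.51% of all genes. In HFHS against CNT 8 of the NF-kappaB targets rose, beside 6.55% of all genes. The mean deviation of the NF-kappaB list from CNT was 0.45, 0.10 and 0.42 in HFHS and 0.21, -0.02 and 0.04 under curcumin. HFHS replicate 2 thus lay inside the curcumin range. A difference that missed the threshold is not shown to be absent. Across all genes the median SE was 0.100 and the smallest called difference 0.24. The markers with an SE given here had larger ones, from 0.12 to 0.71, and Il1b at 0.44 was not called. For them the test could therefore miss differences larger than 0.24.

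Markers of other liver cells were mostly not called, but only 3.51% of all genes tested were called in curcumin against CNT. In lists this short, a lack of calls therefore says little about these cells. None of 16 Kupffer cell, 16 stellate cell and fibroblast, 19 sinusoidal endothelial, 9 cholangiocyte, 11 T and NK cell, 11 B cell and 7 neutrophil genes tested was called in curcumin against CNT, with medians of 0.30, 0.29, -0.12, 0.04, 0.06, 0.16 and 0.16. Of 17 genes of infiltrating macrophages, 1 fell, Fabp5, and none rose. In HFHS against CNT 8 rose and 1 fell, beside 6.55% and 5.36% of all genes. The HFHS libraries were divided: the mean deviation of this list from CNT was 1.47, 0.11 and 0.96 in them. Under curcumin it was 0.21, -0.02 and 0.06, a range that held HFHS replicate 2. Of the 12 adipocyte genes 6 lay under the filter and 1 of the 6 tested rose, Pparg, which hepatocytes also express.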

How the data were processed

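The deposited log2 values, 1 table for each of 12 libraries, were made by the authors; the submitters' processing notes name STAR 2.4.0d, DESeq2 1.8.1 and GRCm38 and give no roles. The transformation is not given in the sources used here. Genes were at 0 in all libraries or in none, the pattern of a regularized log2, and depth is unknown. Of 45792 genes, 23411 at 0 throughout were dropped. Names and positions are those of GENCODE M21, promoters those of RefSeq. Genes with a value of at least 3.32 in 3 libraries were fitted with limma 3.58.1 in R 4.3.3: 4 group means over 12 libraries, moderated variances with trend and robust options, two-sided tests, Benjamini-Hochberg adjustment over 12637 genes and a threshold of 0.05. The fit was tested on simulated data.

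Remaining genes were called in curcumin and in HFHS against CNT in the same direction, arising genes in curcumin against CNT and against HFHS, receding genes in HFHS against CNT and oppositely in curcumin against HFHS. The rule named the 10 largest rises and 10 largest falls with a symbol and no overlap, all arising genes (up to 20), the 6 largest remaining genes each way, up to 6 receding genes each way, up to 4 members of each list with 3 or more calls, and a set of always named genes; other genes were named after their values were seen. Members and the 48 gene lists were chosen with earlier results of these data known. No set test was run. Same-numbered curcumin and HFHS libraries deviated together (r = 0.16, 0.32 and 0.16), so those comparisons also have a fit with the number as a block; curcumin and CNT libraries did not. Some genes that the rule names are not reported here.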

Additional observations from a re-analysis of the deposited data

How the results depend on the processing

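Without the filter on low values, calls against CNT numbered 302 (149 lower), remaining genes 134 and receding genes 33. With a filter on a mean of at least 4, arising genes numbered 35 and receding genes 44. With only the groups compared in each fit, 343 genes were higher, 12 remained, 0 arose and 0 receded. With quantile normalization 43 arose and 51 receded. With library weights 2660 were called (1146 higher, 1514 lower), 1363 remained, 621 arose and 2280 receded. The replicate numbers do not pair curcumin with CNT (correlations of deviations -0.08, -0.02 and -0.38); with the replicate block 416 genes were called, 213 remained, 52 arose and 116 receded. Without HFHS replicates 1 and 3 together, 816 were called (401 higher, 415 lower), 57 remained, 0 arose and 0 receded. Without all HFHS libraries, an alternative chosen after seeing the data, 814 were called (401 higher, 413 lower). Leaving out 1 library in turn gave 94 to 949 calls, 46 to 355 higher, 48 to 642 lower, 30 to 470 remaining, 0 to 254 arising and 0 to 2283 receding genes. The cause of these changes was not tested, beyond the smaller number of samples. Of the 443 calls, 75 were made in every fit without 1 CNT or curcumin library. None of the 443 reversed its direction in the 19 alternatives run, of which the filter on a mean of at least 4 kept 433 of them. This was largely fixed in advance. The groups did not overlap at 442 of the 443, where leaving out or weighting libraries cannot reverse a difference. The filters, variance options, block and fits of fewer groups leave the difference itself unchanged. Quantile normalization and median centring alone could have reversed these 442. Depth is unknown, so no counting error is given.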

Other observations

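Circadian clock genes were lower under curcumin than in CNT for 2 of 19 tested, with none higher and a median of -0.15. Over all genes tested, 1.91% were lower. Nr1d1, the repressor REV-ERB alpha, stood at 10.70, 10.80 and 10.07 in CNT, at 10.28, 10.15 and 10.41 in untreated HFHS and at 9.22, 9.44 and 9.47 under curcumin (-1.15 ± 0.18, limma adjusted p = 0.00804). The curcumin libraries overlapped neither group, and the difference from HFHS missed the threshold (-0.91, adjusted p = 0.051). Dbp, a clock-controlled transcription factor, fell by 0.75 under curcumin and by 0.53 in HFHS against CNT. The hour of tissue collection is not given in the sources used here, and its part was not tested.

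Among apolipoprotein genes, 1 of 22 rose (Apoa4) and 1 fell, Apom, a carrier of sphingosine 1-phosphate on HDL (-0.39). Of 31 growth hormone and sex-biased genes, 2 rose, Elovl3 and Stat5a (0.44), a transcription factor downstream of growth hormone. Cyp2r1, a vitamin D 25-hydroxylase, fell by 0.51 in curcumin against CNT and by 0.50 in HFHS against CNT. Ccl9, a chemokine, fell by 0.64. Respiratory chain genes lay close to CNT: none of 36 was called, with a median of 0.03 and a range of -0.10 to 0.19.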
